A study of Mus musculus with 12 samples.

Results

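Gene expression under an antisense inhibitor of miR-106b, a microRNA, was compared with that under a scrambled control in tibialis anterior muscle 7 days after toxin injury. Every gene with at least 1 CPM (a read count scaled by the authors to a common library size) in at least 3 of the 6 day 7 libraries was tested, which kept 13154 of the 28116 genes in the table. Both groups were mdx mice of strain C57BL/10ScSn-Dmdmdx/J, 4 months old, which carry a mutation in the dystrophin gene Dmd and serve as a model of Duchenne muscular dystrophy. All muscles, those of the controls included, were injured with cardiotoxin, a component of snake venom that kills fibres, after which the muscle regenerates. It was given together with antimiR106b in 1 group and with antimiR-Scrambled in the other, and the study describes each group as 3 animals. Mice without the mutation, uninjured muscle and muscle without any inhibitor were not analysed here. The same arms at day 3, with 3 animals each, are used only to ask whether an effect differed between days.

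A microRNA binds messages whose 3′ untranslated region pairs with its seed, the bases near its 5′ end, and lowers their translation and stability. An antisense inhibitor blocks that pairing, so direct targets of a blocked microRNA are expected to be released. Injured muscle is cleared by macrophages and rebuilt from satellite cells, the muscle stem cells, while capillaries regrow beside the new fibres. The question named by the study is how inhibition of miR-106b changes the expression profile of regenerating dystrophic muscle.

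The mature sequence of miR-106b-5p (RefSeq, GRCm38.p6, chr5:138165787-138165807, minus strand) is shown with 5 relatives that carry the same seed, because an inhibitor of 1 member may meet a family that shares its targets. Bases 2 to 8, the seed, are in capitals.
mmu-miR-106b-5p: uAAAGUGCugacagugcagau
mmu-miR-93-5p: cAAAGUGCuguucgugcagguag
mmu-miR-17-5p: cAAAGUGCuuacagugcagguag
mmu-miR-20a-5p: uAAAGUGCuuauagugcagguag
mmu-miR-20b-5p: cAAAGUGCucauagugcagguag
mmu-miR-106a-5p: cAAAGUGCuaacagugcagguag
Compared position by position from the 5′ end, seed included, miR-93-5p has the same base as miR-106b-5p at 16 of its 21 positions, miR-20b-5p at 17, and miR-17-5p, miR-20a-5p and miR-106a-5p at 18. No value for miR-106b itself was used, so its inhibition was not measured here. Mcm7, the helicase subunit whose gene hosts the microRNA, had 14.02, 11.6 and 12.5 CPM in the scrambled libraries and 13.2, 12.9 and 13.1 CPM in the anti-miR-106b libraries. The groups overlapped and the difference was 0.05 ± 0.09 on the log2 scale (SE). An inhibitor of a mature microRNA need not alter the host message, so Mcm7 is no check of the treatment.

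The 6 libraries held 33335412 to 42825246 reads, and 1 CPM stood for 28.1 to 35.6 reads. Fibre genes showed the labelled tissue: all 22 genes of the mature fast fibre list were kept, and together they reached 221260 to 246470 CPM in scrambled and 213280 to 235680 CPM in anti-miR-106b libraries. Libraries of the 2 groups were not separated on the first principal component of the day 7 data, which held 35.3% of the variance. Mitochondrial reads made up 9.59 ± 1.25% in scrambled and 10.2 ± 0.391% in anti-miR-106b libraries (SD, n = 3, exact permutation p = 0.6). The share of the 10 most abundant genes was 23.1 ± 0.342% against 22.2 ± 0.287% without overlap (exact permutation p = 0.1, the smallest that 3 against 3 libraries allow).

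Few single genes passed at day 7. In limma, fitted over all 12 libraries with Benjamini-Hochberg adjustment, 10 of 13154 genes passed at an adjusted p below 0.05, which is 0.076% of those tested. Of these, 2 were higher with anti-miR-106b (0.0152%) and 8 were lower (0.0608%). At an adjusted p below 0.1 there were 65 genes. An unadjusted p below 0.05 was found in 1499 genes (11.4%), 758 higher and 741 lower. The 3 libraries of each group did not overlap in 701 genes that were higher (5.33%) and 754 that were lower (5.73%), and the median difference over all genes was 0.01 on the log2 scale. The same fit passed 4986 genes at day 3, 16.8% of the genes tested being higher and 21.1% lower with the inhibitor. The change of the inhibitor effect between days, tested directly, passed in 3161 genes (24%), positive in 14.4% and negative in 9.65%.

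The count depended on single libraries. In limma it was 482 without scrambled replicate 1, 0 without scrambled replicate 2 (1388 genes at an unadjusted p below 0.05) and 14 without scrambled replicate 3. It was 2 without anti-miR-106b replicate 1, 58 without replicate 2 and 5 without replicate 3. Limma with voom weights on the reads recovered from the log2 values passed 16 genes, 2 higher (0.0152%) and 14 lower (0.106%). All 10 were among them. The main fit takes the spread from both days. Fitted to the day 7 libraries alone, limma passed 2 genes, only 1 of them among the 10. Aplnr and both protocadherins described below did not pass there, and 769 genes had an unadjusted p below 0.05.

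**Figure D1:**
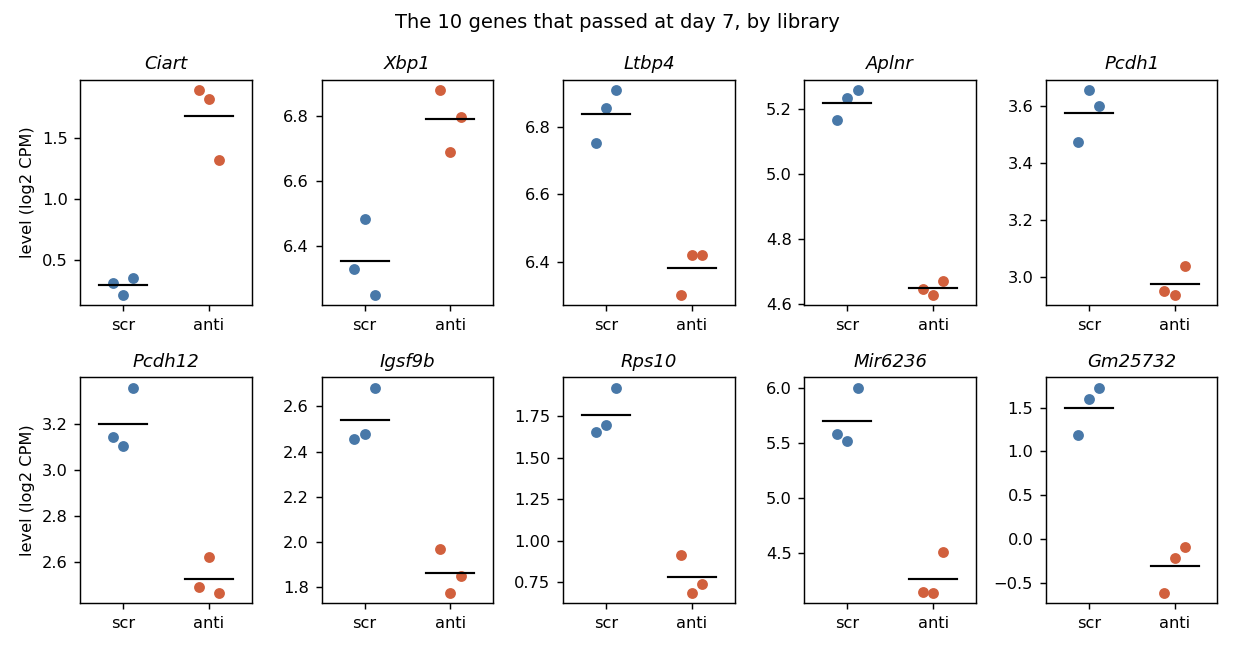
Level in log2 CPM (vertical axis, a separate scale in each panel) of the 10 passing genes in each day 7 library. Blue points are the 3 scrambled (scr) libraries, orange points the 3 anti-miR-106b (anti) libraries, and bars are group means. In each panel the groups do not overlap, with Ciart and Xbp1 higher and the other 8 genes lower in anti-miR-106b libraries.

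The smallest p at day 7 belonged to Aplnr, the G protein-coupled receptor for apelin, known from endothelium (chromosome 2, 85136225 to 85139923, plus strand, GRCm38). It stood at 36.0, 37.7 and 38.3 CPM in the scrambled libraries and at 25.0, 24.7 and 25.5 CPM with anti-miR-106b. The gap between the groups was far wider than the spread within either. Aplnr fell by 0.57 ± 0.06 on the log2 scale (SE, adjusted p = 0.00612), or by 32.8%. At day 3 it had been higher with the inhibitor (0.33, adjusted p = 0.00162), and the change between days passed (adjusted p = 2.67e-04). Apln, the gene of its ligand apelin, had 6.22, 7.15 and 11.5 CPM in scrambled and 4.66, 5.13 and 6.40 CPM in anti-miR-106b libraries. These overlapped, since the highest anti-miR-106b library lay above the lowest scrambled one, and its difference of -0.58 ± 0.19 did not pass (adjusted p = 0.251). At day 3 Apln had been higher with the inhibitor (1.19, adjusted p = 3.71e-04). Its change between days was -1.77 ± 0.26 (adjusted p = 9.43e-04).

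Both passing protocadherins, cell adhesion proteins of the cadherin superfamily, were lower. Pcdh12, known from endothelium, went from 8.84, 8.58 and 10.2 CPM to 5.63, 6.16 and 5.53 CPM (-0.67 ± 0.10, adjusted p = 0.0354). Pcdh1 went from 11.1, 12.6 and 12.1 CPM to 7.73, 7.66 and 8.23 CPM (-0.60 ± 0.09, adjusted p = 0.0354), and it overlaps 2010320O07Rik. Both lie on chromosome 18, and they were 2 of the 6 kept protocadherins outside the gene clusters. Of the other 4, Pcdh17 was at -0.40 ± 0.19 with overlapping groups and the rest had differences above 0. Igsf9b, an adhesion protein of inhibitory synapses (chromosome 9, 27299204 to 27357546, plus strand), had 5.49, 5.57 and 6.42 CPM in scrambled and 3.92, 3.42 and 3.60 CPM in anti-miR-106b libraries, a difference of -0.68 ± 0.11 (adjusted p = 0.0431).

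Ltbp4 encodes a matrix protein that binds latent TGF-β and is known as a modifier of muscular dystrophy in mice (chromosome 7, 27305136 to 27337692, minus strand). Its level was 108, 116 and 120 CPM in scrambled and 78.8, 85.7 and 85.6 CPM in anti-miR-106b libraries. The groups did not overlap, and the fall was 27.3% (-0.46 ± 0.08, adjusted p = 0.0453). Ltbp4 was also lower at day 3 (-0.25, adjusted p = 0.0199), and the change between days did not pass (adjusted p = 0.161). It was the only 1 of 22 kept genes of latent TGF-β and microfibrils to pass, 17 of them had negative values, and their median was -0.15. That median was -0.05 without scrambled replicate 3, -0.09 without scrambled replicate 2 and -0.24 without scrambled replicate 1. In the last of these fits 4 passed lower and 1 higher, beside 1.92% and 1.74% of all genes. Ltbp3, a second binding protein of latent TGF-β, was at -0.16 ± 0.06 without overlap, and Tgfb2, a TGF-β ligand, at 0.35 ± 0.10 without overlap (adjusted p = 0.304 and 0.189). Of 17 collagens 15 had negative values and none passed with or without voom weights. At an unadjusted p below 0.05 there were 4, all lower, beside 11.4% of all genes in either direction. The collagen values rested on single libraries: 12 passed lower without scrambled replicate 1, beside 1.92% of all genes in that fit. The collagen median was then -0.35. It was -0.05 without scrambled replicate 2, -0.03 without scrambled replicate 3 and -0.15 with all libraries.

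Single libraries carried several of these calls. Leaving out scrambled replicate 2 put every one of the 10 genes above the threshold (adjusted p of 0.0510 for Aplnr to 0.123 for Ltbp4). Without anti-miR-106b replicate 1 only Aplnr and Rps10 passed, and without scrambled replicate 3 or anti-miR-106b replicate 3 the calls of Pcdh12, Pcdh1, Igsf9b, Ltbp4, Gm25732 and Xbp1 were lost, while the sign of every one held.

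**Figure D2:**
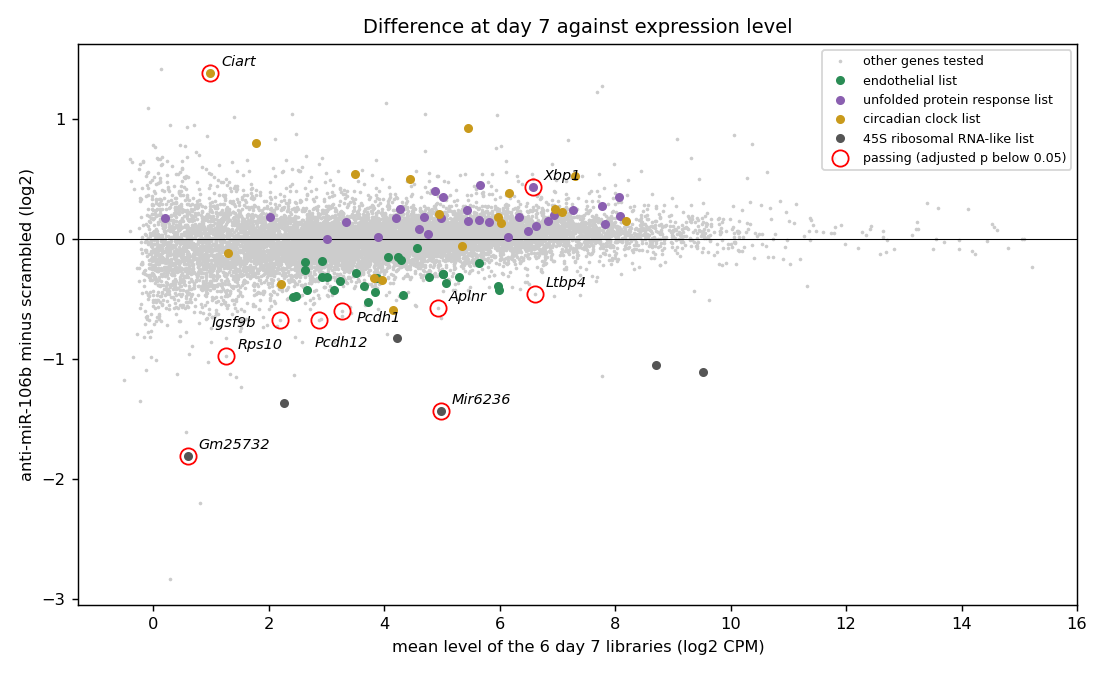
Difference at day 7 (vertical axis, anti-miR-106b minus scrambled, log2) against the mean level of the 6 day 7 libraries (horizontal axis, log2 CPM) for the 13154 genes tested. Red rings mark the 10 passing genes. Endothelial genes (green) lie below 0, unfolded protein response genes (purple) above 0, and the 45S ribosomal RNA-like genes (dark grey) lie between -1.81 and -0.83.

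Most genes of the vessel lists lay below their controls, while those of the capillary list were uneven. All 28 endothelial genes, markers of the cells that line blood vessels, had negative differences, and in 19 of the 28 the groups did not overlap, beside 5.73% of all genes. Their median was -0.32, beside 0.01 over all genes. At an unadjusted p below 0.05 there were 21, all lower, beside 11.4% of all genes in either direction. In limma 0 of the 28 passed over all genes, and 2 passed lower with voom weights, beside 0.106% of all genes. The passing count was 7 without scrambled replicate 1, where 1.92% of all genes passed lower, and 1 without scrambled replicate 3 (0.0456%). All 28 stayed negative in every leave-one-out fit. Summed over the list, the scrambled libraries held 670.7, 650.5 and 621.5 CPM and the anti-miR-106b libraries 538.7, 502.3 and 518.6 CPM, which did not overlap. The list was chosen with earlier results of these data known, so its direction is not independent evidence.

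Pecam1, the adhesion molecule of endothelial junctions, was at 73.1, 70.2 and 71.8 CPM in scrambled and at 57.3, 50.7 and 56.5 CPM in anti-miR-106b libraries (adjusted p = 0.0501). Cdh5, the VE-cadherin of the same junctions, was at 71.4, 76.3 and 73.7 CPM against 59.9, 53.5 and 52.3 CPM (adjusted p = 0.0517). Neither pair of groups overlapped, and both genes passed with voom weights. The transcription factor of vessel development Sox18 had a difference of -0.52 ± 0.10 and the guidance receptor Robo4 one of -0.39 ± 0.08, each without overlap (adjusted p = 0.0604 and 0.0620). Like the rest of the endothelial list, receptors of vessel growth factors did not pass. Kdr, the main VEGF receptor, was at -0.32 ± 0.11, Flt1, a second VEGF receptor, at -0.18 ± 0.14, and Tek, the angiopoietin receptor, at -0.15 ± 0.09, all with overlapping groups; these 3 were picked after their values had been seen.

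Arterial genes ran the same way. All 12 kept genes of the arterial and tip cell list had negative differences, beside 47.8% of all genes. In 7 of them the groups did not overlap, beside 5.73% of all genes. The list's median was -0.32, and 0 passed with or without voom weights. At an unadjusted p below 0.05 there were 8, all lower, beside 11.4% of all genes in either direction. Without scrambled replicate 1, 3 passed lower, beside 1.92% of all genes. Notch4, the Notch receptor of endothelium, was at 11.8, 10.9 and 13.8 CPM in scrambled and at 7.51, 7.48 and 8.26 CPM in anti-miR-106b libraries, a difference of -0.64 ± 0.11 (adjusted p = 0.0517). Its ligand Dll4, which marks tip cells, was at 8.36, 8.05 and 8.17 CPM against 5.76, 5.17 and 6.03 CPM (-0.54 ± 0.11, adjusted p = 0.0897). In both genes the lowest scrambled library exceeded the highest anti-miR-106b library. The ligand Jag1 had a difference of -0.31 ± 0.09 and the arterial ephrin Efnb2 one of -0.42 ± 0.11, also without overlap. Of the 13 kept genes of Notch signalling, which shares some of these members, 11 had negative values. In 6 the groups did not overlap, all lower, beside 5.73% of all genes. None passed with or without voom weights, and 5 had an unadjusted p below 0.05, beside 11.4% of all genes. The median of the 13 was -0.21, and it was -0.11 without scrambled replicate 3. Without scrambled replicate 1, 2 of them passed, beside 482 of all 13154 genes.

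Venous and capillary genes were less even. All 6 venous genes had negative differences (4 without scrambled replicate 2). In 3 the groups did not overlap, beside 5.73% of all genes that were lower. These were Aplnr, which passed, the ephrin receptor Ephb4 (-0.25 ± 0.07) and the venous regulator Nr2f2 (-0.23 ± 0.08). Of 8 capillary genes 5 were negative and 3 positive, with a median of -0.08 (0.008 without scrambled replicate 2). Summed, they held 496 to 618 CPM in scrambled and 566 to 655 CPM in anti-miR-106b libraries, which overlapped. Among the positive ones Timp4 was at 0.36 with overlap. Rgcc, a cell cycle regulator known from capillaries, was higher too, with 51.7, 45.03 and 34.4 CPM in scrambled and 113, 63.6 and 95.7 CPM in anti-miR-106b libraries. The groups did not overlap, both spread widely, and its difference of 1.04 ± 0.20 did not pass (adjusted p = 0.0620). Gpihbp1, which anchors lipoprotein lipase on capillaries, was at -0.28 ± 0.10. Counted once each, 51 of 54 genes of the 4 vessel lists had negative differences, beside 47.8% of all genes. Of the 54, 30 were lower without overlap, beside 5.73% of all genes, and 1 was higher without overlap.

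Markers of neighbouring cell types gave the following values. Lymphatic genes summed to 27.3 to 35.5 CPM in scrambled and 28.9 to 37.5 CPM in anti-miR-106b libraries, with 3 of 7 negative. Pericyte and smooth muscle genes summed to 805.6 to 821.8 CPM against 699.6 to 797.4 CPM, with 9 of 13 negative and the pericyte gene Rgs5 at -0.23 ± 0.08 without overlap. Their median of -0.19 was -0.05 without anti-miR-106b replicate 3, -0.11 without scrambled replicate 3 and -0.13 without scrambled replicate 2. Macrophage genes summed to 521 to 807 CPM against 539 to 892 CPM, with 3 of 18 negative (12 without scrambled replicate 1). The part of these cell types in the vessel values was not tested. In bulk muscle, fewer endothelial cells and less of these messages in each cell cannot be told apart.

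The vessel genes did not behave alike on both days. The median of the 28 endothelial genes was 0.20 at day 3, where 12 of them were higher and 0 lower with the inhibitor, beside 16.8% and 21.1% of all genes. The change between days passed in 19 of the 28, all negative, beside 9.65% of all genes. For Pecam1 the day 3 difference was 0.26 and the change -0.65 ± 0.10 (adjusted p = 9.43e-04). For Dll4 the difference was negative on both days (-0.34 at day 3) and its change did not pass (adjusted p = 0.389).

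**Figure D3:**
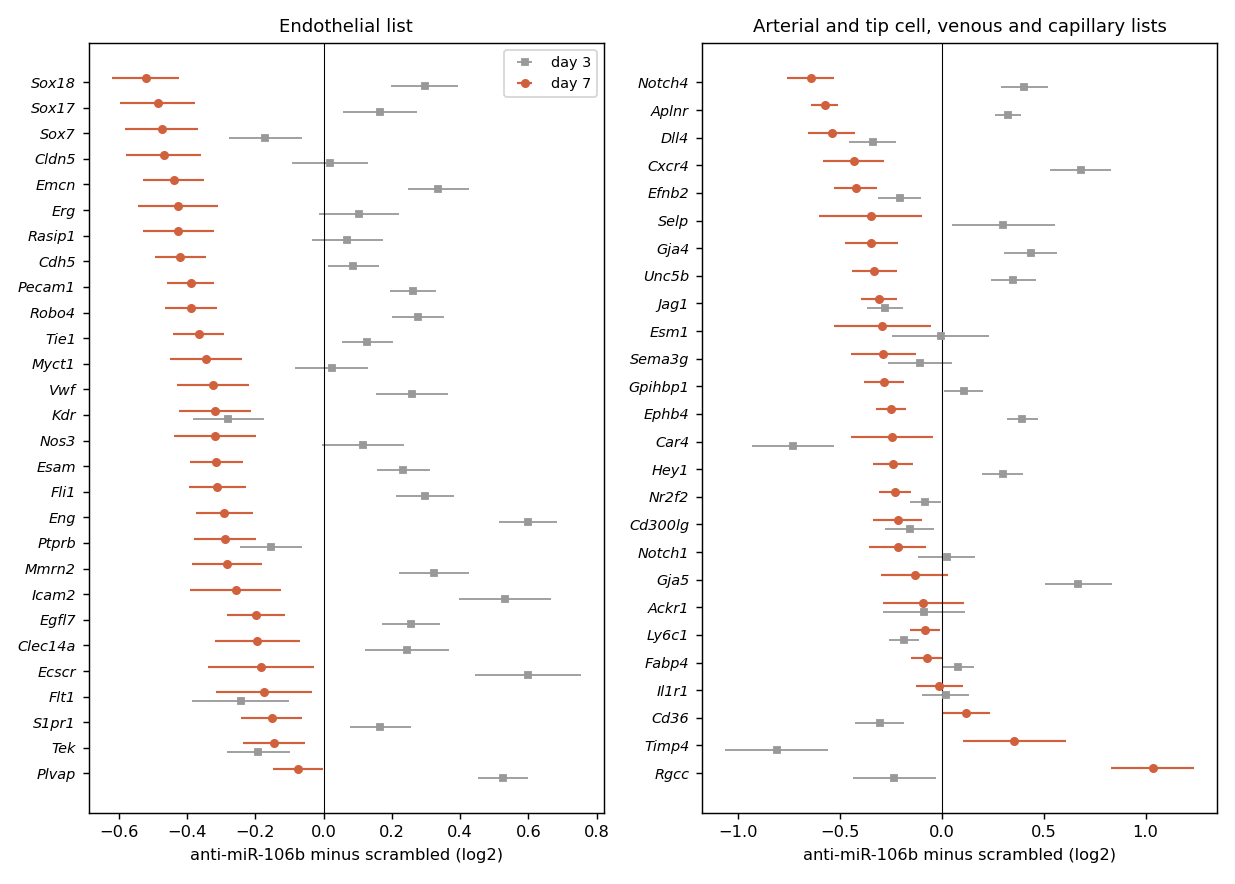
Difference between anti-miR-106b and scrambled (horizontal axis, log2) for endothelial genes (left) and for the arterial, venous and capillary genes (right), 1 row a gene. Orange circles are day 7, grey squares day 3, and lines are standard errors. All 28 endothelial genes lie below 0 at day 7, while Rgcc on the right lies at 1.04.

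Genes of Schwann cells also had mostly negative values. Of 18 listed genes of Schwann cells, the glia that wrap motor axons, 11 were kept and 10 of these had negative differences, with a median of -0.20 and summed levels of 90.3 to 95.4 CPM in scrambled and 69.1 to 82.9 CPM in anti-miR-106b libraries. Prx, periaxin of the myelin sheath, was at 3.92, 3.33 and 3.98 CPM against 2.24, 2.00 and 2.47 CPM (-0.74 ± 0.14, adjusted p = 0.0604). The groups did not overlap, and the lowest scrambled library was replicate 2. Mbp, a myelin protein, was at -0.66 ± 0.22 with overlapping groups. None of the 11 passed in limma, and 1 passed lower with voom weights, beside 0.106% of all genes. At an unadjusted p below 0.05 there were 3, all lower, beside 11.4% of all genes in either direction. Without scrambled replicate 3 only 7 were negative and the median was -0.09. Without scrambled replicate 1 all 11 were negative and 2 passed lower, beside 1.92% of all genes. Of the 12 neuromuscular junction genes 8 were negative, with summed levels of 389.7 to 463.2 CPM against 390.4 to 459.3 CPM.

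The further genes with the smallest p on the lower side had adjusted p values of 0.0501 to 0.0604. All 12 had groups without overlap, which picking genes by p favours. Besides Pecam1, Cdh5, Sox18, Notch4 and Prx they included the p53-induced gene Trp53i11 (-0.55 ± 0.09), the interferon-induced GTPase Gbp5 (-0.86 ± 0.15), the kinase Dyrk2 (-0.42 ± 0.07), Ushbp1 (-0.46 ± 0.08), the transcriptional corepressor Cbfa2t3 (-0.56 ± 0.11) and the guanine nucleotide exchange factor Mcf2l (-0.53 ± 0.10). None of them passed, and Dyrk2 and Ushbp1 passed with voom weights.

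On the higher side, genes of the circadian clock stood out by size. The clock is a loop in which Arntl and Clock drive their own repressors, among them the Per and Cry genes and Ciart, and output genes such as Dbp. Ciart, a repressor of the loop (chromosome 3, 95878503 to 95882251, minus strand), was at 1.24, 1.16 and 1.28 CPM in scrambled and at 3.72, 3.53 and 2.50 CPM in anti-miR-106b libraries. The scrambled libraries were nearly equal and every anti-miR-106b library lay above them. Ciart rose by 1.39 ± 0.19 on the log2 scale (adjusted p = 0.0166). A gene on its opposite strand, C920021L13Rik, was at -0.20 ± 0.20 with overlapping groups, and whether reads were counted by strand is not given in the sources used here.

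Dbp, a transcription factor of clock output, was at 35.1, 21.7 and 42.2 CPM in scrambled and at 61.4, 73.5 and 48.6 CPM in anti-miR-106b libraries (0.92 ± 0.19, adjusted p = 0.0756). The clock repressor Bhlhe40 was at 152, 116 and 127 CPM against 224, 189 and 161 CPM (0.53 ± 0.11, adjusted p = 0.0851). In both the lowest anti-miR-106b library stood just above the highest scrambled one. The period gene Per3 was at 0.50 ± 0.13 with overlap. The next members were picked after their values had been seen: Per2 was at 0.80 ± 0.22 and Cry2, a cryptochrome, at 0.21 ± 0.06, both without overlap, whereas Cry1 was at -0.32 ± 0.10 without overlap and the activator Arntl at -0.59 ± 0.19 with overlap. Of 19 clock genes 13 had positive values, 6 were higher without overlap, beside 5.33% of all genes, and 1 was lower. Only Ciart passed, and the median was 0.21. At an unadjusted p below 0.05 there were 9 higher and 3 lower, beside 11.4% of all genes in either direction. Leaving out scrambled replicate 1 gave 4 passing members, all higher, beside 1.74% of all genes. Leaving out scrambled replicate 3 gave 3 higher and 1 lower, beside 0.0608% and 0.0456%. None passed without scrambled replicate 2 or anti-miR-106b replicate 1. The change between days passed in 11 of the 19, all positive, beside 14.4% of all genes, and the list's median at day 3 was -0.29. The hour at which muscles were collected is not given in the sources used here.

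The 250 bases before the start of Ciart are shown because E-boxes, the letters CACGTG to which the clock activators bind, recur in them (RefSeq, GRCm38.p6, chr3:95882229-95882478, minus strand, 5′ to 3′ toward the gene). E-boxes are in capitals.
Ciart promoter: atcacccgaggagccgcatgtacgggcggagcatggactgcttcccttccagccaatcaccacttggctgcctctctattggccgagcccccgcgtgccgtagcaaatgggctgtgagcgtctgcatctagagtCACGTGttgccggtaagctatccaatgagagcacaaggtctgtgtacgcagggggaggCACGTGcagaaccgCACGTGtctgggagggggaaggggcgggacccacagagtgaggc
The motif reads the same on both strands and occurs 3 times, the farthest starting 116 and the nearest 44 bases before the RefSeq start. It occurs at least once in 6.02% of the 32851 promoters of this length in the table, and in 8.29% of the 12878 promoters of genes kept at day 7. Of 16 clock genes with a promoter there, 5 hold it. Their median difference was 0.18, beside 0.14 in those without it. A match is a run of letters, not a measured site.

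Genes of the unfolded protein response had small positive values throughout. This response raises chaperones and enzymes that fold proteins in the endoplasmic reticulum. The list was written after Xbp1, Hspa5 and Dnajb9 had been seen among the smallest p values, so it is a description with no test. Xbp1, a transcription factor of the response (chromosome 11, 5520659 to 5525893, plus strand), was at 80.2, 89.4 and 76.0 CPM in scrambled and at 118, 103 and 111 CPM in anti-miR-106b libraries. The groups did not overlap, and Xbp1 rose by 0.44 ± 0.07 (adjusted p = 0.0482), the weakest of the 10 calls: it passed in 9 of 18 alternative settings. Its change between days passed as well (0.41 ± 0.10, adjusted p = 0.0122).

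Hspa5, the chaperone BiP, was at 250, 236 and 227 CPM against 323, 288 and 299 CPM (0.35 ± 0.06, adjusted p = 0.0562). Dnajb9, a partner of BiP, was at 47.8, 41.6 and 40.6 CPM against 65.0, 54.3 and 58.8 CPM (0.45 ± 0.09, adjusted p = 0.0604). Neither pair overlapped, and in both the first library of each group was the highest. Manf, a secreted protein of the same response, was at 0.35 ± 0.10 with overlap. All 30 kept members had positive values as fitted, but 3 were negative under total-count scaling or library weights, 1 under quantile normalization, and 1 to 4 when any single library was left out. Their median was 0.18, beside 0.01 over all genes, and 12 were higher without overlap, beside 5.33% of all genes. Only Xbp1 passed, and 14 had an unadjusted p below 0.05, beside 11.4% of all genes. The passing count was 5 without scrambled replicate 1, 4 without anti-miR-106b replicate 2 and 0 in each of the other leave-one-out fits. Over all 13154 genes it was 482 without scrambled replicate 1 and 58 without anti-miR-106b replicate 2. At day 3 the median was 0.20 with 16 higher and 2 lower, beside 16.8% and 21.1% of all genes. The change between days passed in 4 of the 30 upward and 4 downward, beside 14.4% and 9.65% of all genes.

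The promoter of Hspa5 is shown because it holds the endoplasmic reticulum stress element, searched on both strands as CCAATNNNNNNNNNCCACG (RefSeq, GRCm38.p6, chr2:34771840-34772089, plus strand). The match is in capitals and starts 65 bases before the start.
Hspa5 promoter: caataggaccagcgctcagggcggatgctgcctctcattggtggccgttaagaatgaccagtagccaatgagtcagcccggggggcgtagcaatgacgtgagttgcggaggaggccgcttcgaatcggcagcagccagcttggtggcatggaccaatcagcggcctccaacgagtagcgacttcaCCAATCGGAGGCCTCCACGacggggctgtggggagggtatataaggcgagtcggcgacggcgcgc
The element occurs in 0.113% of all 32851 promoters of this length, in 0.109% of those of kept genes and in 8 of the 26 list members with a promoter in the table. The median difference was 0.18 in members with it and 0.18 in those without it. No match was found in the 250 bases before Xbp1 or Dnajb9, which says only that these letters are not in that window.

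**Figure D4:**
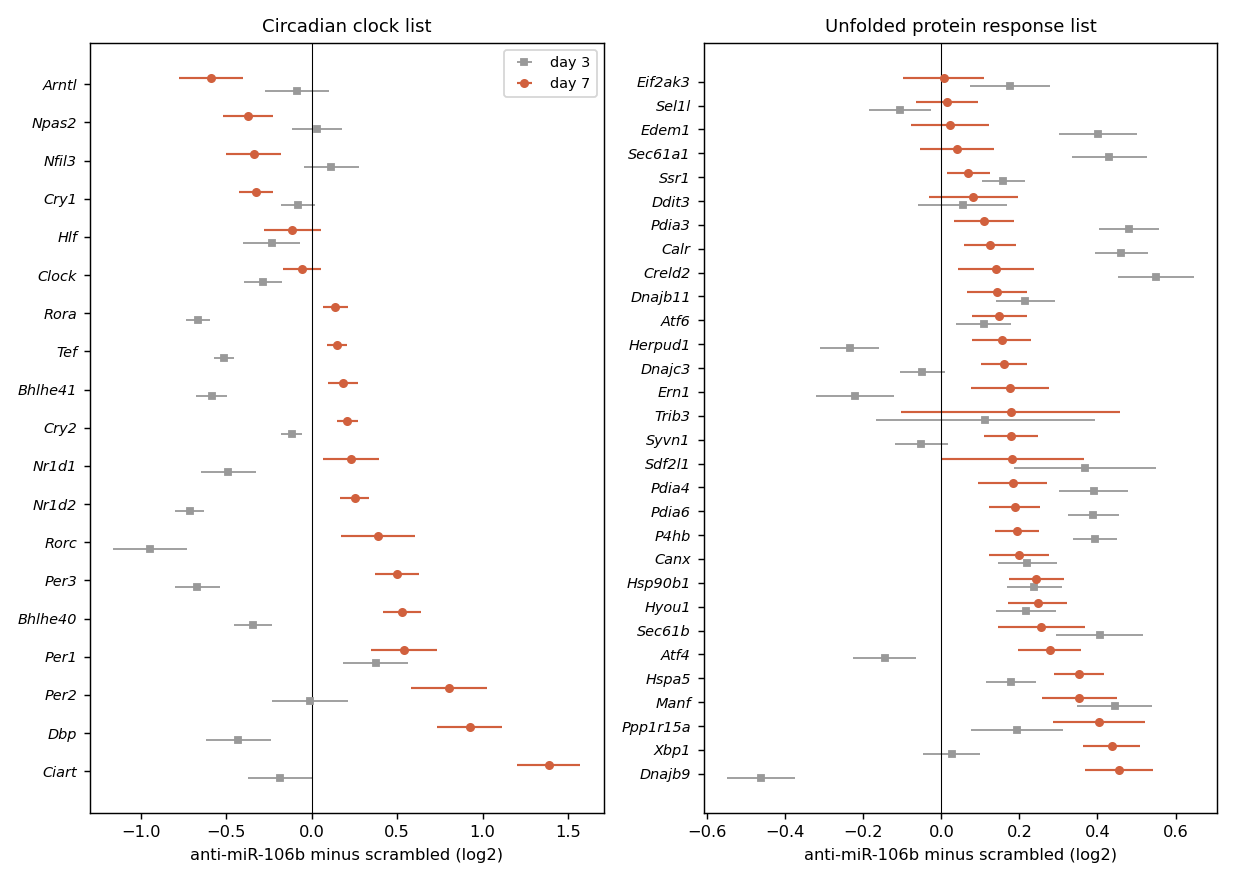
Difference between anti-miR-106b and scrambled (horizontal axis, log2) for circadian clock genes (left) and unfolded protein response genes (right), 1 row a gene. Orange circles are day 7, grey squares day 3, and lines are standard errors. Ciart lies at 1.39 and Arntl at -0.59 at day 7, while the unfolded protein response genes lie between 0.01 and 0.45.

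The other genes with the smallest p on the higher side had adjusted p values of 0.0541 to 0.0897, and none passed. All had groups without overlap, which picking genes by p favours. Besides Hspa5, Dnajb9, Rgcc, Dbp and Bhlhe40 they included Lmod2, a nucleator of sarcomeric actin (186, 172 and 179 CPM against 230, 216 and 264 CPM, 0.40 ± 0.07), and the small heat shock protein of muscle Hspb7 (0.87 ± 0.17). Pf4, a chemokine of platelets and macrophages (0.54 ± 0.10), Pigx (0.49 ± 0.09), the ribosomal protein paralog Rpl22l1 (0.36 ± 0.07), the secretory pathway protein Tmed2 (0.30 ± 0.06) and the nuclear envelope protein Tmem43 (0.34 ± 0.07) complete the set.

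Genes whose reads resemble ribosomal RNA lay far below their controls, with a median of -1.24 over 6 genes. Mir6236 (chromosome 9, 110281287 to 110281409, plus strand) was at 48.0, 45.8 and 63.9 CPM in scrambled and at 17.7, 17.7 and 22.7 CPM in anti-miR-106b libraries, a difference of -1.43 ± 0.20 (adjusted p = 0.0213). Gm25732 (chromosome 4, 139338206 to 139338265, plus strand) was at 2.27, 3.02 and 3.31 CPM against 0.653, 0.861 and 0.939 CPM, a difference of -1.81 ± 0.28 (adjusted p = 0.0380). Both sets of groups were wide apart. Gm25732, 1 of the 8 lower calls, was below 1 CPM in every anti-miR-106b library. It was kept through the scrambled libraries alone, so it could be found only lower. The most abundant members, CT010467.1 (-1.11 ± 0.19, adjusted p = 0.0501) and Lars2 (-1.05 ± 0.20, adjusted p = 0.0620), did not pass. Lars2 encodes a mitochondrial tRNA synthetase and holds a ribosomal RNA-like stretch in its message. All 6 kept genes of this list, which was written after these values had been seen, were lower without overlap, beside 5.73% of all genes. Their passing count was 6 without scrambled replicate 1, 1 without replicate 3 of either group, and 0 without scrambled replicate 2 or anti-miR-106b replicate 1. Over all 13154 genes it was 482 without scrambled replicate 1, 14 without scrambled replicate 3 and 5 without anti-miR-106b replicate 3. Summed, the 6 genes held 1579 to 1979 CPM in scrambled and 767 to 965 CPM in anti-miR-106b libraries. The share of reads was taken over an earlier list of ribosomal RNA-like genes, which lacks CT010467.1. That share was 0.0551, 0.0473 and 0.0753% in scrambled and 0.0272, 0.0252 and 0.0293% in anti-miR-106b libraries (exact permutation p = 0.1, the smallest possible). This measure of library makeup moved with the inhibitor at day 7, and its part in the other results was not tested.

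Rps10, a protein of the small ribosomal subunit, stood apart from its group (chromosome 17, 27630418 to 27636669, minus strand). It had 3.14, 3.24 and 3.79 CPM in scrambled and 1.88, 1.61 and 1.67 CPM in anti-miR-106b libraries, from 104 to 119 and 45 to 58 reads. It fell by 0.98 ± 0.13 (adjusted p = 0.0166). Of the 35 ribosomal protein genes 32 had positive values, with a median of 0.08 and Rpl30 at 0.22 ± 0.06. The median was 0.02 with quantile normalization or library weights or without anti-miR-106b replicate 3. Rps10 has pseudogene copies and overlaps a readthrough gene, RPS10-NUDT3, so its count is uncertain.

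Genes of regeneration itself gave no call with all libraries. Since only 0.076% of all genes passed, no call in such short lists is not a result about them. Some of their differences were large with a wide spread. None of the lists of satellite cells, early differentiation, regenerating fibres, mature fast fibres or the dystrophin complex had a passing member in limma. With voom weights there was none either. At an unadjusted p below 0.05 there were 3 of 11, 0 of 15, 3 of 15, 1 of 22 and 0 of 14, beside 11.4% of all genes. Without scrambled replicate 1, 3 regenerating fibre genes passed lower and 1 gene of the dystrophin complex higher, beside 1.92% and 1.74% of all genes. Without anti-miR-106b replicate 2, 2 regenerating fibre genes passed higher, beside 0.357%. Pax7, the satellite cell factor, was at 4.89, 5.15 and 5.98 CPM in scrambled and at 4.95, 5.31 and 4.23 CPM in anti-miR-106b libraries (-0.15 ± 0.12). The myogenic factors Myf5 (0.07 ± 0.22), Myod1 (-0.27 ± 0.13) and Myog (0.06 ± 0.22) overlapped as well. Embryonic myosin Myh3, a mark of young fibres, was at 40.8, 37.2 and 67.6 CPM against 116, 44.4 and 98.2 CPM. Anti-miR-106b replicates 1 and 3 were high and replicate 2 lay within the scrambled range (0.76 ± 0.28, adjusted p = 0.321); without replicate 2 the gene passed. The imprinted growth regulator Dlk1, another gene of young fibres, was at -1.13 ± 0.42. Over all genes the 1st and 99th percentiles of the difference were -0.54 and 0.49.

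The mutated gene Dmd was at 25.9, 22.3 and 27.7 CPM in scrambled and at 28.8, 27.6 and 27.3 CPM with anti-miR-106b, which overlapped (0.15 ± 0.08, adjusted p = 0.521). At day 3 it had been lower (-0.52, adjusted p = 3.71e-04), and its change between days passed (0.66 ± 0.11, adjusted p = 0.00199). Utrn, the dystrophin relative utrophin, was at -0.10 ± 0.08. Slow fibre genes had a median of 0.13 and none of 12 passed (4 at an unadjusted p below 0.05, all higher, 0 with voom weights). Without scrambled replicate 1, scrambled replicate 3 or anti-miR-106b replicate 2, 1 passed higher, beside 1.74%, 0.0608% and 0.357% of all genes. Ankrd2, a stretch-responsive protein of slow fibres, had the largest value of them at 1.23 ± 0.32 with overlap. The slow myosin Myh7, picked after its value had been seen, had the lowest at -0.54, also with overlap.

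Among immune genes, those of the interferon response had mostly negative values. Of 20 interferon response genes 19 had negative values with a median of -0.20, and none passed with or without voom weights. At an unadjusted p below 0.05 there were 2, beside 11.4% of all genes. Without scrambled replicate 1 the median was -0.33 and 2 passed lower, beside 1.92% of all genes. The median was -0.31 without anti-miR-106b replicate 1, -0.11 without anti-miR-106b replicate 2 and -0.07 without scrambled replicate 3. Ifit3, an interferon-induced antiviral gene, was at 6.97, 7.06 and 8.58 CPM in scrambled and at 6.99, 4.85 and 5.86 CPM in anti-miR-106b libraries, which overlapped. Uba7, the activating enzyme of the ubiquitin-like ISG15, was at 8.14, 8.05 and 8.996 CPM against 7.86, 6.70 and 6.86 CPM, which did not. At day 3 all 20 had been higher with the inhibitor, beside 16.8% of all genes, and the change between days passed in all 20, all negative, beside 9.65% of all genes. Macrophage genes had no stable direction. As fitted, 15 of 18 were positive with a median of 0.09 and none passed in limma. At an unadjusted p below 0.05 there were 0, beside 11.4% of all genes. With voom weights none passed, and 2 had an unadjusted p below 0.05, both higher. The median was -0.11 with 12 negative without scrambled replicate 1 and -0.01 with 10 negative without anti-miR-106b replicate 1. Under library weights it was -0.03 with 11 negative. Without anti-miR-106b replicate 2 it was 0.32 and 1 passed higher, beside 0.357% of all genes. Their lysosomal marker Cd68 was at 0.38 ± 0.18 and the lectin Lgals3 at 0.56 ± 0.26, both with overlapping groups. Anti-miR-106b replicate 2 was within the scrambled range for Cd68 and below it for Lgals3, while replicates 1 and 3 were above it in both.

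**Figure D5:**
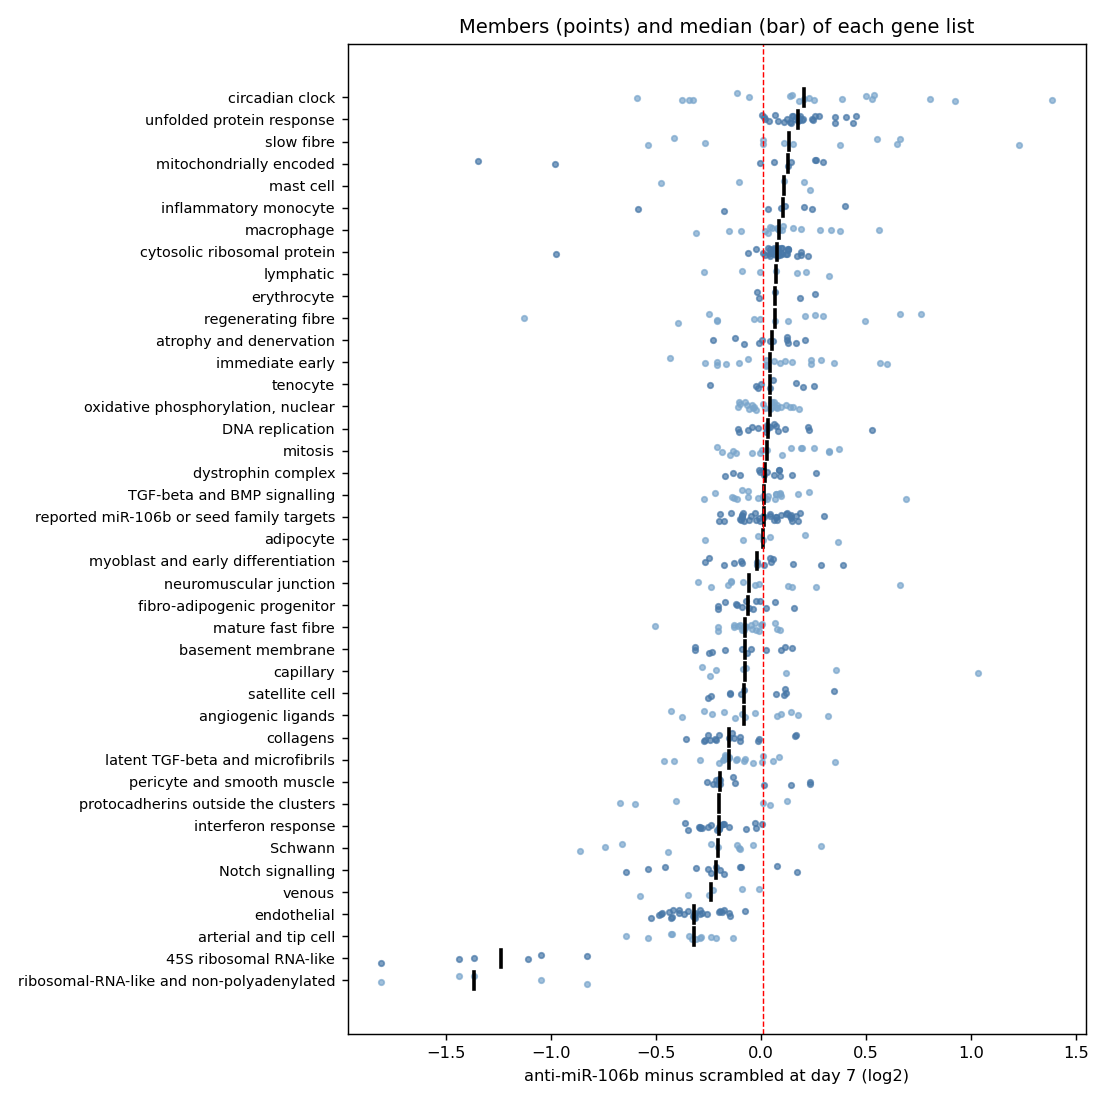
Difference at day 7 (horizontal axis, anti-miR-106b minus scrambled, log2) of the members of each gene list with at least 5 kept genes. Points are genes, black bars list medians, and the dashed red line is the median of all genes tested (0.01). The 2 lists of ribosomal RNA-like genes lie farthest left, with medians of -1.37 and -1.24. Endothelial and arterial lists have medians of -0.32, capillary genes of -0.08 and circadian clock genes of 0.21.

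Targets of the microRNA were looked at by list and by sequence. Of 36 genes reported as targets of miR-106b or its seed family, 19 had positive and 17 negative values, and the median was 0.01. None passed with or without voom weights, and 1 had an unadjusted p below 0.05, beside 11.4% of all genes. Without scrambled replicate 1, 1 passed higher, beside 1.74% of all genes. The median lay between -0.02 and 0.06 whichever library was left out. The autophagy receptor Sqstm1 had 768, 692 and 551 CPM in scrambled and 918, 724 and 827 CPM in anti-miR-106b libraries, which overlapped (0.30 ± 0.12, adjusted p = 0.339). The signal transducer Stat3 was at 0.19 ± 0.09 and the autophagy protein Atg16l1 at 0.15 ± 0.07. Cdkn1a, the cell cycle inhibitor p21 and a well-known target, was at 39.8, 35.5 and 44.7 CPM against 54.5, 35.8 and 43.6 CPM, and only anti-miR-106b replicate 1 lay above the scrambled range (0.14 ± 0.13). The cell cycle activator E2f1, likewise a known target, was at -0.18 ± 0.15.

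Stretches of 28 bases around the first seed match in the longest annotated 3′ UTR are shown for 4 of these genes, and for Dmd, which is not on the target list, to make the pairing visible (GENCODE M21, GRCm38, 5′ to 3′). Capitals mark the bases that match the seed, followed by A in the 8-base matches of Sqstm1, Atg16l1 and Dmd.
Sqstm1: ataaaatggcatatGCACTTTAaccagc
Atg16l1: gtcacacttactttGCACTTTAtttttt
Dmd: tgcttgtatggcaaGCACTTTAcccact
Cdkn1a: ctcagacctgaataGCACTTTggaaaaa
E2f1: ggtgggctctaactGCACTTTtggtgtc
Of 12201 kept genes with a 3′ UTR, 548 hold the 8-base match GCACTTTA (4.49%). Their median difference was 0.02, beside 0.01 in the 7048 genes without even a 6-base match and 0.01 over all genes with a 3′ UTR. Groups did not overlap in 31 of the 548 that were higher (5.66%) and in 29 that were lower (5.29%), near the shares of all genes. None of the 548 passed, beside 2 higher and 6 lower of all 12201 genes with a 3′ UTR. Of these passing genes, Pcdh1 holds a 7-base match to bases 2 to 7 followed by A, as do 7.60% of the 12201. None holds the 8-base match, beside 4.49%. The other passing genes have no 3′ UTR here, and such small counts are no result about the match.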

How the data were processed

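The authors deposited log2 CPM for 28116 gene symbols in 12 libraries. The tools named per the submitters' processing notes are STAR and featureCounts on build mm10, limma 3.34.9 and edgeR 3.20.9, with Trim Galore 0.4.3.1 and FastQC 0.72 for the reads. Their settings and the strand are not given in the sources used here. Per the labels' protocols, libraries came from total RNA with a TruSeq kit. Removing the logarithm gave whole reads in every library (100% of values within 0.01). Sample labels give days 3 and 7, and day 7 was used although 1 passage of the design text has day 5.

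The deposited log2 values were fitted with limma 3.58.1 in R 4.3.3 (group means over 12 libraries, prior variance with trend, 8 residual and 5.62 prior degrees of freedom), with two-sided tests and Benjamini-Hochberg adjustment over 13154 genes. CPM printed are these values without the logarithm. Changes are on the log2 CPM scale, errors of differences are SE. The filter, the constant added, scaling, weights, prior, replicate block and each library were varied, and the model was tested on simulated data. The design text describes each group as 3 animals, so p values measure the spread between these samples. That spread was pooled over the 12 libraries of both days.

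Genes were named by a rule: all passing, 12 further with the smallest p in each direction, up to 4 members of each list, and a fixed set; others are marked, and a few that the rule names are not reported here. Members and lists were chosen with earlier results of these data known, and 2 lists were added after values had been seen. Symbols matched GENCODE M21 (27907 of 28116).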

Additional observations from a re-analysis of the deposited data

Results flagged for a closer look

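The effect of the inhibitor differed between day 3 and day 7, by the test of the change itself (limma, adjusted p of 2.67e-04 to 0.0437), in the genes given here. Values are the day 7 minus the day 3 difference on the log2 scale. No group has over 3 libraries, so single outlying libraries were not tested for.

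Among vessel genes the change was -0.90 for Aplnr, -1.77 for Apln, -0.65 for Pecam1, -0.51 for Cdh5, -0.82 for Sox18, -0.66 for Robo4, -1.05 for Notch4, -0.64 for Ephb4 and 1.27 for Rgcc. For the protocadherins it was -1.09 for Pcdh1 and -0.52 for Pcdh12. Ribosomal RNA-like genes changed by -1.56 (Mir6236), -1.29 (Gm25732), -0.90 (CT010467.1), -1.01 (Lars2), -1.46 (Gm15564) and -1.24 (Gm26917, chosen after its values had been seen), and Rps10 by -1.47. Interferon-induced genes changed by -1.43 (Ifit3), -1.07 (Uba7) and -1.31 (Gbp5).

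Clock genes changed upward, by 1.57 for Ciart, 1.35 for Dbp, 1.17 for Per3, 0.87 for Bhlhe40 and 0.33 for Cry2. The secretory genes Dnajb9, Xbp1 and Tmed2 changed by 0.92, 0.41 and 0.39. Muscle genes changed by 0.66 (Dmd), 0.58 (Ampd1), 0.40 (Ryr1), 0.45 (Lmod2), 0.76 (Chodl) and -0.77 (Myod1). TGF-β genes changed by 0.76 (Tgfb2) and -0.27 (Ltbp3). The remaining values were -1.13 for Trp53i11, -0.68 for Cbfa2t3, -0.66 for Mcf2l, -0.37 for Ushbp1, -0.38 for Mcm7, -0.56 for Cdkn1a and 0.41 for Tmem43.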

How the results depend on the processing

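The count of 10 passing genes (2 higher, 8 lower) moved to 38 (8 and 30) with 1 CPM added, 45 (10 and 35) with 5 CPM added, 2 (0 and 2) with the day 7 libraries alone, 56 (25 and 31) with library weights, 26 (4 and 22) with total-count scaling and 21 (8 and 13) with quantile normalization. It was 16 (2 and 14) with voom weights on recovered reads, an alternative chosen after seeing the data. The higher count alone was 1 with the filter over 12 libraries, 4 with no filter and 1 without a trended prior. Leaving out 1 library gave 0 to 482 passing genes, 0 to 229 higher and 0 to 253 lower. With a replicate block 0 genes passed in limma, 0 higher and 0 lower (1458 at an unadjusted p below 0.05, lowest adjusted p 0.0527). After removing group means, same-numbered day 7 libraries correlated at 0.054, -0.050 and 0.16 over genes, and differently numbered ones at -0.26 to 0.20. These values cannot tell whether the numbers pair samples. The change between days passed in 2447 to 4483 genes in the other settings and in 5282 with library weights. Of 1530 gene values under an alternative 9 changed sign, each with 1 library left out, where the values ranged from -0.016 to 0.12 for Mcm7, -0.011 to 0.29 for Cdkn1a, -0.28 to 0.0081 for E2f1, -0.10 to 0.34 for Myf5 and -0.13 to 0.37 for Myog. The median of genes with the 8-base match ranged from -0.011 to 0.040. The cause was not tested. The planned edgeR fit was not run: the deposited values are log2, and voom was run on the recovered reads in its place. With 28.1 to 35.6 reads per CPM, genes near 1 CPM rest on few reads.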

Other observations

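Of the mitochondrially encoded genes, mt-Co2, a subunit of cytochrome c oxidase, was listed at only 1.51, 1.10 and 1.53 CPM in the scrambled day 7 libraries and at 0.427, 0.719 and 0.506 CPM in the anti-miR-106b libraries, without overlap (-1.35 ± 0.29 on the log2 scale, limma adjusted p = 0.0956). Every anti-miR-106b library was below 1 CPM. The gene was kept through the scrambled libraries alone, so it could be found only lower.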
